A study of Mus musculus with 80 samples.

Results

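The miR-200 family comprises 5 microRNA loci, Mir200c, Mir141, Mir200b, Mir200a and Mir429, and its levels are described here in subcutaneous white fat of genetically diverse mice on 2 diets. Members were the features of the annotated expression table whose gene symbol was one of these names. All 5 symbols were present with 1 feature each, out of 39415 features with a symbol, of which 967 were microRNA loci. The family was chosen by a measured value, the difference between diets, above all the rise of Mir200c on high fat, so differences between diets of these loci are given as a description, with no test.

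Gene expression was measured in 42 strains of male mice, 40 BXD strains and the parental strains C57BL/6J and DBA/2J. Each BXD strain is an inbred line bred from the offspring of these parents. Chow groups (42 arrays) received Harlan 2018 throughout life, and high fat groups (38 arrays) received Harlan 06414 from week 8. All mice were killed at 29 weeks after an overnight fast, and each array held RNA pooled from about 5 animals of 1 strain and 1 diet, so no group had a second pool. Both diets were measured in 38 strains, and 4 strains (BXD56, BXD60, BXD92a, BXD96) only on chow. Total RNA was cleaned on columns and amplified with a whole-transcript kit. Whether a feature named for a microRNA locus reads the primary transcript, the hairpin or the mature microRNA was not tested. Levels are scores as deposited, which average 8 on each array with an SD of 2. Differences are therefore in scale units of 0.5 array SD, are relative to all other features of the array, and are not folds. Levels of different loci come from different probes and are not compared with each other.

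MicroRNAs are cut from hairpins in longer primary transcripts and lower the output of messenger RNAs that pair with their seed, the bases near their 5′ end. The miR-200 family is best known in epithelial cells, where it represses Zeb1 and Zeb2, transcription factors that switch off epithelial genes and that in turn repress the miR-200 loci. Fat cells are mesenchymal, and the family's epithelial context is the reason that markers of epithelium were examined beside it.

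The mature 3′ arms are shown because they divide the family in a way that differs from its division into gene clusters. Sequences are those of RefSeq on GRCm38.p6, all on the minus strand, written 5′ to 3′ with the seed (bases 2 to 8) in capitals.
mmu-miR-200c-3p: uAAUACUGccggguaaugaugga
mmu-miR-200b-3p: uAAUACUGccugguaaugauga
mmu-miR-429-3p: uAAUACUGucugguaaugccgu
mmu-miR-141-3p: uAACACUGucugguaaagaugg
mmu-miR-200a-3p: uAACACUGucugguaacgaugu
The first 3 arms share the seed AAUACUG, and the other two share AACACUG. Counted from 1 at the 5′ end, the change U4C separates the seed of miR-200c-3p from that of miR-141-3p. None of the other mouse arms among the 1738 mature sequences available carried either seed. Over the first 22 bases, miR-200c-3p and miR-200b-3p matched at 20 (90.9%), differing by G11U and G22A. The arms of miR-200c and its cluster partner miR-141 matched at 18 (81.8%).

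By position the family forms 2 clusters. Mir200c lies at chr6:124718322-124718390 and Mir141 at chr6:124717914-124717985, with 336 bases between them. Mir200b lies at chr4:156055681-156055750, Mir200a at chr4:156054896-156054985 and Mir429 at chr4:156053905-156053987, so that this cluster spans 1846 bases. On the minus strand, Mir200c and Mir200b are the 5′-most loci of their clusters. In the gene table none of the loci lay inside a protein-coding gene. Phb2 and Ptpn6 were the nearest protein-coding genes on either side of the chromosome 6 cluster, and Ttll10 was next to the Mir429 end of the chromosome 4 cluster. The hairpins of the 2 loci of the chromosome 6 cluster are shown, with the 3′ arm in capitals, because these neighbours differed most in the comparison of diets.
Mir200c hairpin: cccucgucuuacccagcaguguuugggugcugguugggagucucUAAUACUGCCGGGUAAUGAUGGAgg
Mir141 hairpin: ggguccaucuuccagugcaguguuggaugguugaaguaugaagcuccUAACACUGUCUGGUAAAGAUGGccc
The Mir200c hairpin has 69 bases and a GC content of 55.1%, and the Mir141 hairpin has 72 bases and 50.0%.

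The samples carried the marks of fat, with other tissues in varying amounts. The mean score of 8 fat cell markers was between 13.67 and 14.53 on chow and between 13.75 and 14.52 on high fat. The mean of 10 skeletal muscle markers ranged from 8.60 to 14.82 on chow, and that of 8 B cell and lymph node markers from 8.51 to 11.83. The mean of 12 glandular epithelium markers stayed between 7.81 and 8.32 over both diets, near the array mean, and that of 12 skin epithelium markers between 7.83 and 9.46. On high fat, 9 of 10 muscle, 6 of 8 B cell and 8 of 12 skin epithelium markers fell and 7 of 8 macrophage markers rose (limma, adjusted p under 0.05). Of all features 61% passed that threshold, 36.5% higher and 24.5% lower on high fat. In scale units (mean ± SD, 38 strains), the largest muscle differences were Myh4 -1.47 ± 3.1, Ttn -1.45 ± 3.0 and Neb -1.41 ± 2.9. Among B cell markers they were Cxcl13 -0.84 ± 1.42, Cr2 -0.83 ± 1.35 and Ms4a1 -0.77 ± 1.50. Cd68 (1.26 ± 0.88), Itgax (1.05 ± 0.79) and Trem2 (1.04 ± 0.59) led the macrophage markers. Of the fat cell markers, Lep rose (0.83 ± 0.93), and Plin1 (-0.21 ± 0.31) and Fabp4 (-0.11 ± 0.17) fell. In bulk tissue, fewer cells of a type and less RNA per cell cannot be told apart.

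Strain labels did not match between diets in 15 of 38 strains. Over the 100 genes whose chow levels were split most clearly in 2, with 8 or more strains on either side, the chow array of 23 strains correlated best with the high fat array of the same strain (r = 0.66 to 0.91). In BXD51, BXD55, BXD63, BXD73, BXD75, BXD79, BXD80, BXD81, BXD83, BXD84, BXD85, BXD87, BXD89, BXD90 and BXD95 it did not. There the correlation with the strain's own high fat array was -0.34 to 0.24, and that with another strain's array reached 0.49 to 0.86. The chow array labelled BXD80, for instance, matched the high fat array labelled BXD75, and BXD83 matched BXD80. Which diet carries the wrong labels cannot be told apart. With 200 genes in place of 100, 21 strains matched, and BXD43 and BXD61 each then failed the match in 1 of its directions. No array was moved, diet labels were not in question, and results that rest on pairs within a strain are also given for the 23 matched strains.

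Mir200c was far higher on high fat than on chow in all 38 strains. Its 42 chow arrays ran from 5.65 (BXD97) through a median of 6.29 to 6.73 (BXD62), and its 38 high fat arrays from 7.38 (BXD61) through 8.10 to 8.38 (BXD65). The groups did not overlap, so that the lowest high fat array lay above the highest chow array. Every high fat array exceeded every chow array for 0.0203% of all features (8 of 39415), the reverse held for 0.0279%, and 0.622% were higher in all 38 strains. In the paired strains the mean went from 6.28 ± 0.21 to 8.08 ± 0.24 (SD, n = 38), a within-strain difference of 1.80 ± 0.31 units. The smallest difference was 0.86, in BXD61, and the largest 2.36, in BXD97. These extremes were the strain with the lowest high fat level and the strain with the lowest chow level, both with matching labels over these 100 genes. Over the 23 matched strains the difference was 1.74 ± 0.32, again upward in 23 of 23. It was 1.50 ± 0.34 in the first 10 strains in sample order (BXD43 to BXD62) and 1.90 ± 0.22 in the other 28, upward in every strain of both sets. The mean difference ranked 2 among the 39415 features and 1 among the 967 microRNA loci, and relative to its own SD over strains it ranked 1 among all features.

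Mir141, its neighbour at 336 bases, overlapped between diets. Its levels ran from 5.01 through a median of 5.40 to 5.84 on chow and from 4.92 through 5.25 to 5.67 on high fat. All lay below the lowest median score of any array (7.74), as did Mir200c on chow and Mir200b and Mir200a on both diets. Whether these features read above background was not tested. Of the high fat arrays, 2 lay below the whole chow range and none above it. The within-strain difference was -0.11 ± 0.24 units, with 25 strains lower and 13 higher on high fat. Over the 23 matched strains it was -0.12 ± 0.27, higher in 10. In every one of the 38 strains Mir200c differed more between diets than Mir141, by 0.88 to 2.53 units.

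Mir200b, the counterpart of Mir200c in seed and in cluster position, was the other member that was higher on high fat. It ran from 5.46 through a median of 5.79 to 6.32 on chow and from 5.79 through 6.38 to 6.92 on high fat. The groups overlapped, but 24 of 38 high fat arrays lay above all chow arrays. The difference was 0.59 ± 0.35 units and upward in 37 of 38 strains, a count that 2.17% of features reached. BXD68, which had the highest chow level of this locus, was the exception at -0.36, and C57BL/6J had the largest difference at 1.33. Over the matched strains it was 0.53 ± 0.37, upward in 22 of 23. The difference was 0.37 ± 0.26 in the first 10 strains in sample order and 0.67 ± 0.35 in the other 28. By mean difference Mir200b ranked 200 among all features and 6 among microRNA loci. Its difference was smaller than that of Mir200c in 38 of 38 strains, by 1.21 ± 0.38 units.

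Mir200a and Mir429, the other loci of the chromosome 4 cluster, also overlapped between diets. Mir200a ran from 6.68 through 6.94 to 7.37 on chow and from 6.67 through 6.99 to 7.20 on high fat. Its difference was -0.01 ± 0.24 units, with 21 strains higher and 17 lower, and its sign turned with quantile normalization (0.03). Over the 23 matched strains it was -0.02 ± 0.20, higher in 13. Mir429 ran from 7.64 through 8.00 to 8.54 on chow and from 7.44 through 7.96 to 8.23 on high fat. Its difference was -0.08 ± 0.24 units, with 14 strains higher and 24 lower. Over the 23 matched strains it was -0.09 ± 0.26, higher in 9. It was 0.11 ± 0.19 in the first 10 strains in sample order and -0.15 ± 0.22 in the other 28. High fat minus chow, with its sign, was larger for Mir200b than for Mir200a in 34 strains and than for Mir429 in 35. Mir429 carries the same seed as Mir200c and Mir200b, and was not higher with them.

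**Figure D1:**
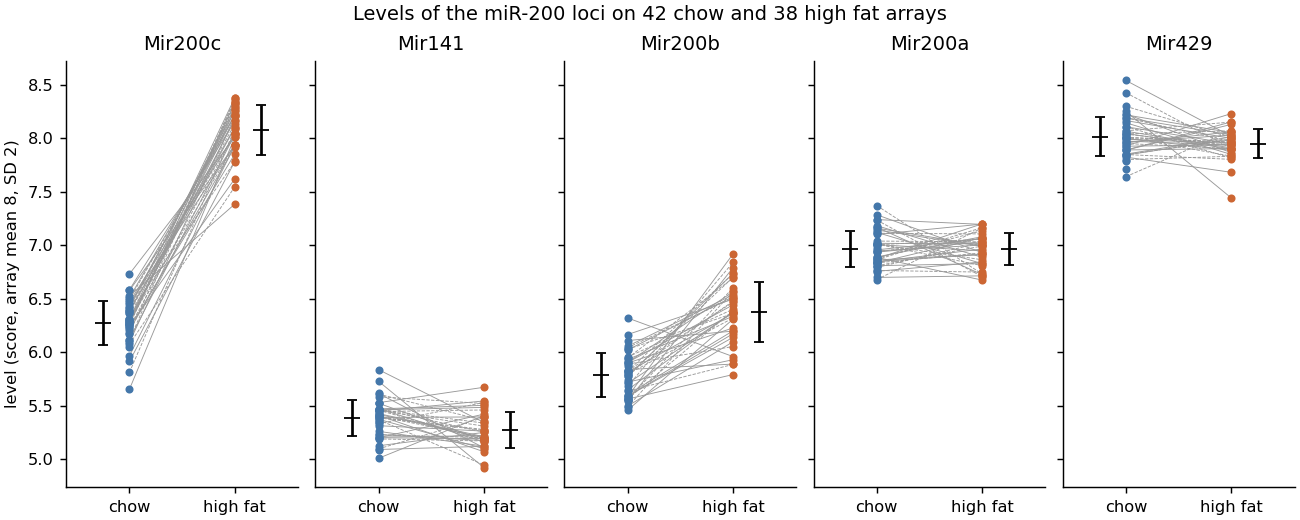
Level of each miR-200 locus (score, array mean 8 and SD 2) on chow (blue, 42 arrays) and high fat (orange, 38 arrays); grey lines join the arrays of a strain, dashed where its labels did not match between diets, and black bars give mean and SD. The Mir200c groups are apart, 24 of 38 Mir200b high fat arrays lie above the chow range, and the other loci overlap.

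**Figure D2:**
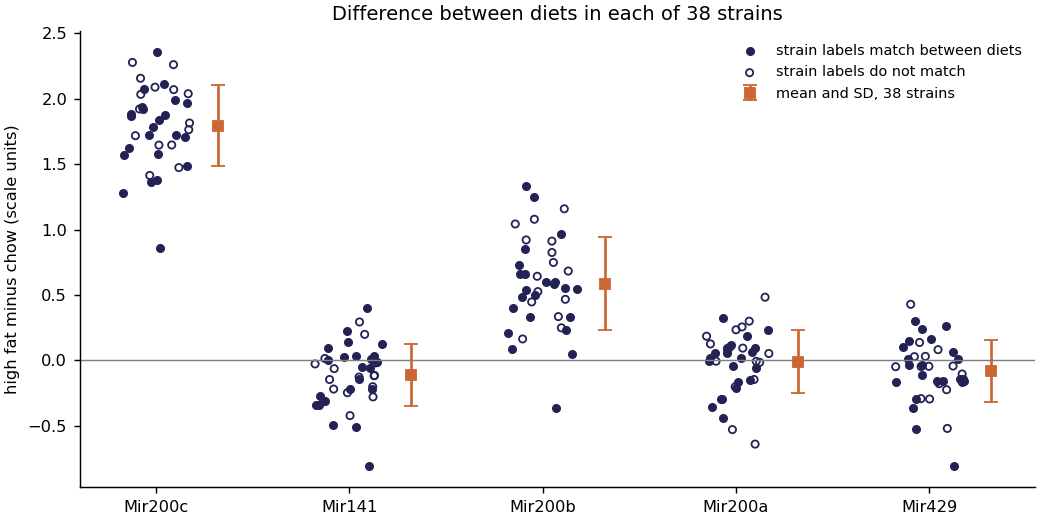
Difference between diets (high fat minus chow, scale units) in each of 38 strains, filled where the strain labels matched (23) and open where they did not (15); squares and bars give mean and SD. Mir200c lies between 0.86 and 2.36 in every strain, and Mir141, Mir200a and Mir429 scatter about 0.

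The 4 strains on chow alone fell within the chow ranges of the others. Mir200c was 6.31 in BXD56, 6.05 in BXD60, 6.27 in BXD92a and 6.17 in BXD96. Mir200b in the same strains was 5.55, 5.82, 5.87 and 5.74.

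Among all microRNA loci a difference of the size of Mir200c was not usual. Of 967 loci, 307 rose and 261 fell on high fat (58.7% together, against 61% of all features), but 11 were higher and 4 lower by at least 0.5 units. Over all features such differences were reached by 0.967% upward and 0.852% downward. The median difference was 0.01 and its median size 0.12. Mir543, on chromosome 12, was the only other microRNA locus with every high fat array above every chow array. It rose by 1.24 ± 0.29 units, in 38 strains (limma adjusted p = 1.86e-23). Mir493 rose by 0.87 ± 0.36 in 37 strains, Mir654 by 0.77 ± 0.28 in 38 and Mir511 by 0.61 ± 0.63 in 32. The deepest falls were those of Mir7210 (-0.64 ± 0.38, lower in 38 strains, as were 0.52% of all features), Mirlet7f-1 (-0.57 ± 0.52), Mir6957 (-0.53 ± 0.69), Mir421 (-0.51 ± 0.42) and Mir5104 (-0.48 ± 0.63). Base composition and length of the hairpin moved little with the difference. Spearman's rho across 727 loci was -0.06 for GC content and -0.04 for length, as a description, since loci share arrays and often clusters.

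The contrast between Mir200c and Mir141 was also set beside other neighbours. On the same strand, 78 pairs of neighbouring microRNA loci lay within 2000 bases of each other. The mean differences between diets of such neighbours lay 0.15 units apart at the median and 0.51 at the 90th percentile. Mir141 and Mir200c lay 1.91 units apart, the widest of the 78, and Mir1193 and Mir543 came next at 1.40. The family was chosen for the rise of Mir200c, the largest among microRNA loci. A wide gap for its pair thus follows in part from that choice and is a description. Mir200a and Mir200b lay 0.60 apart. After removal of diet means, neighbours correlated over the 76 arrays with a median r of 0.14, with a 10th percentile of -0.09 and a 90th of 0.47. The value was 0.21 for Mir141 and Mir200c, 0.16 for Mir200a and Mir200b and -0.05 for Mir429 and Mir200a.

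**Figure D3:**
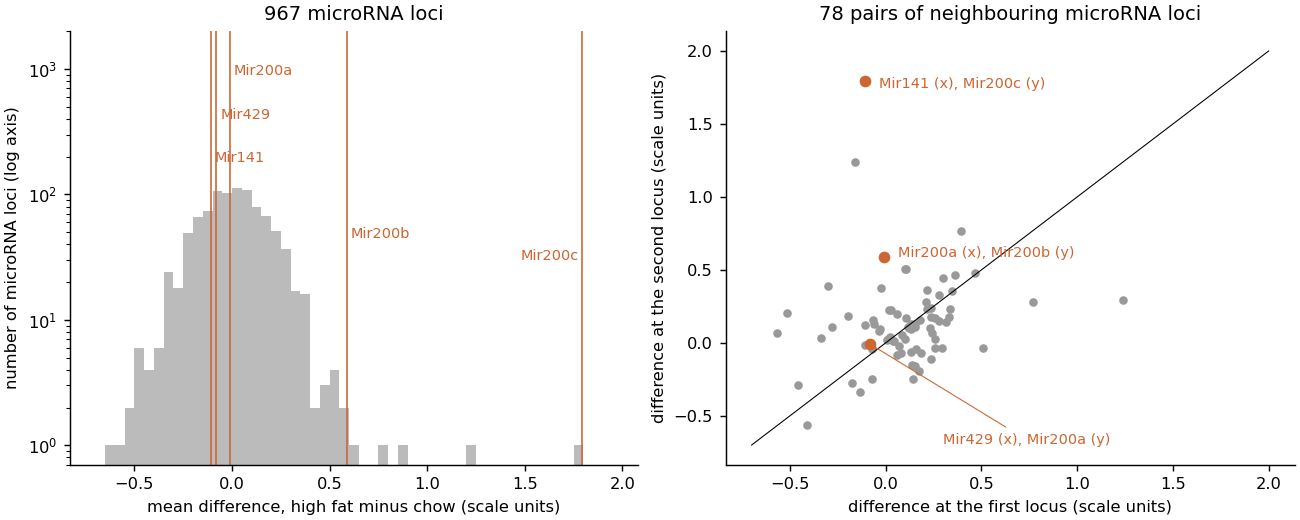
Left, mean difference between diets (high fat minus chow, scale units) of 967 microRNA loci, counted on a log axis, with the miR-200 loci as lines. Right, the difference of one locus against that of its neighbour within 2000 bases on the same strand (78 pairs, line of equality in black); Mir141 and Mir200c lie farthest from the line, at -0.11 and 1.80.

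The comparison of strains asks whether the level of a locus depends on the inherited background. It was not used to choose the loci. None of the 5 loci differed between strains past the threshold in limma's F test over 38 strains. The adjusted p was 0.477 for Mir200c, 0.525 for Mir141, 0.609 for Mir200b, 0.784 for Mir200a and 0.809 for Mir429, and no unadjusted p was under 0.05 (the lowest was 0.293). By comparison, 11% of all features were called. With the 23 matched strains 18.2% of features and 64 of 967 microRNA loci were called, and the miR-200 loci again were not (adjusted p = 0.308 to 0.852). The intraclass correlation, the share of variance between strains once diet means are removed, was 0.09 for Mir200c, 0.00 for Mir141, 0.02 for Mir200b, 0.23 for Mir200a and -0.17 for Mir429 in these strains. Its median was 0.21 over all features and 0.13 over microRNA loci. With 1 pool per strain and diet, a strain effect that differs between diets counts as spread.

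No relation between a strain's level on chow and its level on high fat was detected. Pearson's r between the 2 diets over 38 strains was 0.06 for Mir200c, 0.05 for Mir141, -0.01 for Mir200b, -0.10 for Mir200a and -0.12 for Mir429. Spearman's rho lay between -0.06 and 0.12, and none of the 5 relations passed a permutation test (adjusted p = 0.938 for each). Without the 2 strains farthest from the median, r lay between -0.18 and 0.09. Over the 23 matched strains the largest value was that of Mir200a, at 0.21 (adjusted p = 0.891).

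None of the loci passed the test between the parental strains. Mir200c was 6.47 on chow and 8.04 on high fat in C57BL/6J, and 6.58 and 8.16 in DBA/2J. Mir200b was 5.58 and 6.92 in C57BL/6J, and 5.77 and 6.74 in DBA/2J. Mir141 was 5.61 and 5.11 in C57BL/6J, and 5.52 and 5.18 in DBA/2J. In both parents Mir200c and Mir200b were higher on high fat and Mir141 lower. Mir200a was 6.83 and 7.07 in C57BL/6J, and 6.96 and 7.06 in DBA/2J. For Mir429, C57BL/6J had 8.25 on chow and 7.44 on high fat, the lowest high fat value of all strains, while DBA/2J had 8.11 and 7.95. Across diets DBA/2J exceeded C57BL/6J by 0.12 units for Mir200c (limma adjusted p = 0.766) and by 0.18 for Mir429 (0.517). The parental difference was -0.01 for Mir141, 0.00 for Mir200b and 0.06 for Mir200a, with adjusted p from 0.869 to 0.996. Of all features, 12.2% differed between the parents. Each parent had 1 array per diet, and the spread came from all 38 strains.

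Whether the loci vary together from pool to pool was asked within each diet, which does not rest on strain labels. Of 20 relations between members, 1 passed over all 38 strains. On high fat, Mir200c and Mir200b were correlated over 38 arrays, with Pearson's r = 0.63 and Spearman's rho = 0.60 (permutation p = 1e-05, the smallest that the resamples can give, adjusted p = 0.0002). Without the 2 arrays farthest from the median r was 0.49. The relation over 38 arrays depended on 1 block of arrays. The first 10 paired strains in sample order, BXD43 to BXD62, had high fat levels of 7.38 to 8.04 for Mir200c and 5.79 to 6.31 for Mir200b, with means of 7.80 ± 0.22 and 6.08 ± 0.17. The other 28 had means of 8.18 ± 0.15 and 6.49 ± 0.23. Within the first 10 arrays r was 0.72 and rho 0.80, but r was 0.27 without the 2 farthest arrays. Over the other 28 arrays r was 0.18 and rho 0.25 (adjusted p = 0.820), so the relation did not pass without the block. Mir141 and Mir429 passed instead on chow over the 28 strains (r = 0.56, adjusted p = 0.0404, rho = 0.52 with adjusted p = 0.107). On chow the means of both sets were 6.30 and 6.28 for Mir200c and 5.71 and 5.82 for Mir200b. The block was seen in these values and is no batch that the labels give, so no test was made between the sets, and its cause was not tested. On chow their r was 0.16 and rho 0.03 (adjusted p = 0.585). The difference between these correlations was not tested. Mir200c and Mir141, of one cluster, had r = 0.12 on chow and 0.30 on high fat (adjusted p = 0.625 and 0.300). Mir200a and Mir429 had r = 0.00 and -0.14. In the 23 matched strains, with fewer arrays, r between Mir200c and Mir200b on high fat was 0.50 (adjusted p = 0.188). On high fat BXD61 was lowest for both loci, at 7.38 for Mir200c and 5.79 for Mir200b. The miR-200c and miR-200b arms are alike at 20 of 22 bases, and whether one feature also reads RNA of the other locus was not tested.

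**Figure D4:**
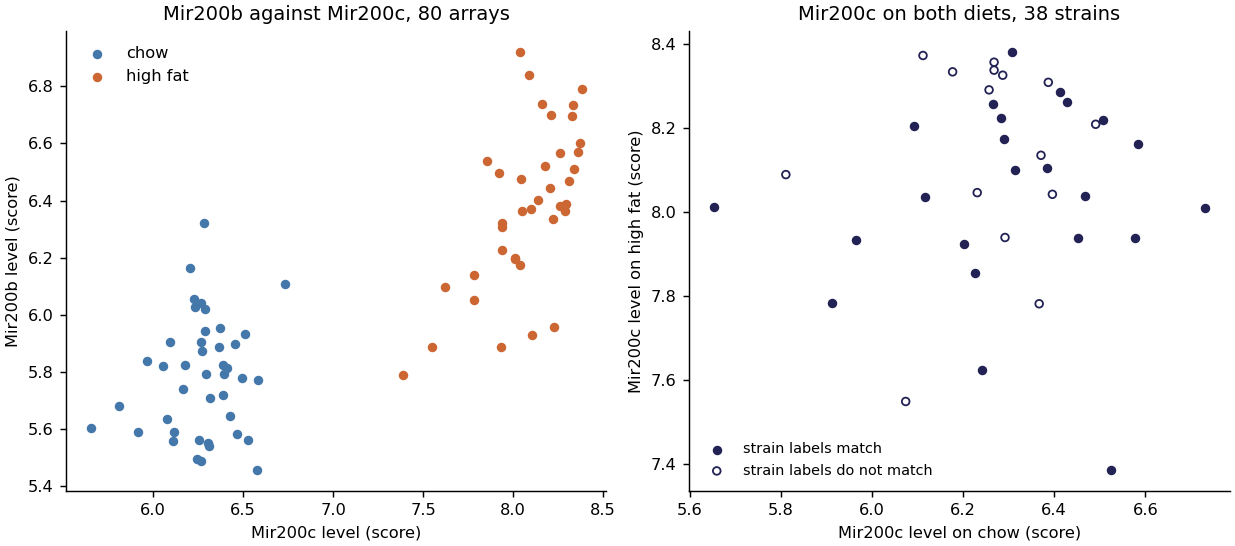
Left, Mir200b against Mir200c (scores) on 42 chow and 38 high fat arrays; r was 0.63 on high fat, with 10 strains (BXD43 to BXD62) low for both loci, and 0.16 on chow, both over 38 strains. Right, Mir200c on high fat against Mir200c on chow in 38 strains, filled where strain labels matched; r was 0.06.

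The features most like each locus were taken by Pearson's r over the 76 arrays with diet means removed, as a description over arrays that share their processing. For Mir200c they were Mir193b (0.50), Gm19935 (0.48), Prm2 (0.48), Gm26507 (0.47) and 9430038I01Rik (0.46). For Mir200b they were Mir200c itself (0.44), Gm6985 (0.43), Gm14114 (0.39), Mir193b (0.38) and 1700040F17Rik (0.38), so Mir193b was among the nearest to both. Mir141 was nearest to Gm26815 (0.49), Gm5334 (0.47), Ghrh (0.47), Grip1os2 (0.46) and Acsm4 (0.45). Mir200a was nearest to Akt2-ps (0.53), Atp5c1-ps (0.49), Gm6964 (0.47), Akt2 (0.47) and Tshr (0.46). The values of Mir429 were higher, with 2810405F15Rik (0.73), Nrgn (0.71), 1700022H01Rik (0.71), Gm23675 (0.71) and Otx1 (0.70).

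Levels of the loci were also set against markers of the cell types the depot may hold, within each diet. Of 110 relations, 8 passed by Pearson's r and 2 by Spearman's rho, and 7 of the 8 concerned Mir429. On chow, Mir429 was higher where the mean of the glandular epithelium markers was higher (r = 0.69, rho = 0.54, adjusted p = 0.0011, r = 0.60 without the 2 farthest strains). The same held for the mean of 30 genes of the epithelial programme (r = 0.65, rho = 0.57, adjusted p = 0.0011). Both relations passed on high fat as well, with r = 0.61 (adjusted p = 0.0117) and 0.57 (0.0264), but without the 2 farthest strains r fell to 0.39 and 0.23. On chow Mir429 was lower where Zeb1 was higher (r = -0.50, adjusted p = 0.0304) and where B cell markers were higher (r = -0.49, 0.0341). Neither passed by Spearman's rho (adjusted p = 0.129 and 0.261) or with quantile normalization (0.0860 and 0.0625). With Zeb1 on high fat, Mir429 had r = -0.37 (adjusted p = 0.161). On high fat it also followed the mean of the other microRNA loci (r = 0.53, adjusted p = 0.0427), which rested on the 2 farthest strains (r = 0.10 without them). The array median, the middle score of an array, moved with Mir429 too. It ranged from 7.74 to 7.83 over all arrays, and its r with Mir429 was 0.48 on chow and 0.45 on high fat. Its part in these relations was not tested. With quantile normalization 3 of the 110 relations passed. Over the 23 matched strains, with fewer arrays, 0 passed, with 20 at an unadjusted p under 0.05. There r of Mir429 with the glandular markers was 0.67 on chow and 0.62 on high fat. With the epithelial programme it was 0.61 and 0.59. Without the 2 farthest of these strains the high fat values fell to 0.21 and 0.13.

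Mir200c gave 1 relation that passed, with the epithelial programme on chow (r = 0.46, rho = 0.43, adjusted p = 0.0466). It fell to r = 0.33 without the 2 farthest strains and missed the threshold with quantile normalization (adjusted p = 0.0994) and when centred on the other microRNA loci (0.115). With Zeb1 on chow, Mir200c had r = -0.44 (adjusted p = 0.0693), and on high fat r = -0.03. No locus passed with Lep, which encodes leptin, a fat cell hormone that follows fat mass. Its r with Mir200c was -0.05 on chow and 0.04 on high fat.

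The comparison of diets for genes around the family asks whether its known targets, its regulators and its genomic neighbours differed as well. Against 61% of all features, 16 of 30 known miR-200 targets passed the threshold, 11 higher and 5 lower on high fat, with a median difference of 0.06 units (0.03 over all features). Zeb1, the best known target, fell by 0.09 ± 0.19 units, from 11.04 to 10.95, in 27 of 38 strains (limma adjusted p = 0.0117), but over the matched strains its adjusted p was 0.360. Zeb2 differed by 0.05 ± 0.32 units (adjusted p = 0.377). Lepr, the leptin receptor, fell by 0.46 ± 0.62 units (8.24e-05). Tubb3, a neuronal tubulin, rose by 0.28 ± 0.15 in 37 strains, Msn, which links actin to the membrane, by 0.28 ± 0.23, and Zfpm2, a partner of GATA factors, by 0.21 ± 0.14. Messenger RNA levels do not show translation, which miR-200 can also lower.

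The epithelial programme was split. Of 30 genes 8 rose and 7 fell (50% together, against 61% of all features), with a median difference of 0.00 units. Epcam, an epithelial adhesion molecule, rose by 0.22 ± 0.17 units in 36 strains (limma adjusted p = 1.18e-08), and Llgl2, a polarity gene, by 0.22 ± 0.16. Ap1m2, an epithelial sorting adaptor subunit, fell by 0.23 ± 0.16 in 38 strains, while Cdh1, which encodes E-cadherin, fell by 0.15 ± 0.19 and Esrp1, an epithelial splicing factor, by 0.10 ± 0.22. With the muscle, B cell and skin epithelium means as covariates the split was less even, with 11 genes of the programme higher and 3 lower. Cdh1 and Esrp1 no longer passed, at -0.05 and -0.02 units. One covariate is itself a mean of epithelial markers, which differed by -0.20 units between diets. Its part in these shifts was not tested. Of the glandular markers, 1 of 12 rose (Epcam) and 3 fell (Cdh1, Cldn4 and Wfdc2), 33.3% together. With the covariates none of these falls passed, and Epcam and Krt19 were higher. Of the skin markers, none rose and 8 fell, among them Krt10 by 0.48 ± 0.79, Dsp by 0.37 ± 0.71 and Krt5 by 0.36 ± 0.64 units. With the same covariates the Mir200c difference was 1.84 units. The glandular list and the programme share genes such as Cdh1 and Epcam.

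Of 20 mesenchymal genes, some of them also targets, 11 rose and 1, Zeb1, fell, with a median difference of 0.18 units. Together these are 60%, against 61% of all features (36.5% higher and 24.5% lower). Mmp14, a membrane-bound matrix protease, rose by 0.42 ± 0.37, Tgfb1, a growth factor that drives the mesenchymal state, by 0.33 ± 0.20 and S100a4 by 0.31 ± 0.39 units. Of 10 regulators of the miR-200 loci, 4 rose and 2 fell, also 60% together. The repressors Snai1 (0.26 ± 0.23, adjusted p = 8.75e-08) and Snai2 (0.18 ± 0.34, 0.00356) were among those that rose, and Snai2 no longer passed with covariates (0.08 units). Trp63, a transcription factor of basal epithelium, fell by 0.19 ± 0.24 units, and with covariates, whose skin list holds Trp63 itself, was at -0.04 (adjusted p = 0.292). Grhl2 and Ovol2, which act for the epithelial state, differed by 0.03 ± 0.15 and -0.01 ± 0.18 units (adjusted p = 0.241 and 0.724). With covariates Grhl2 passed (0.08 units, adjusted p = 0.0432).

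Of 20 genes of microRNA processing 10 rose and 2 fell, 60% together, a share near the 61% of all features. Ran, which drives export of hairpins with Xpo5, rose by 0.23 ± 0.19 units and Prkra, a Dicer partner, by 0.22 ± 0.22. Lin28b, which blocks maturation of let-7, fell by 0.26 ± 0.13 in 37 strains (limma adjusted p = 1.24e-12). The nearest genomic neighbours of the Mir200c cluster did not pass the test. Ptpn6, a phosphatase of blood cells, differed by -0.05 ± 0.60 units (adjusted p = 0.677) and Phb2, a mitochondrial prohibitin, by 0.02 ± 0.16 (0.586). With the tissue covariates Ptpn6 was higher on high fat by 0.20 units. Among 12 genes of that neighbourhood 6 rose and none fell, 50% against the 61% of all features that passed in either direction. The largest rises were those of Tpi1, a glycolytic enzyme (0.40 ± 0.41), Atn1 (0.31 ± 0.15) and Spsb2 (0.19 ± 0.14). Around the chromosome 4 cluster, 5 of 12 measured genes rose and 4 fell, 75% together. Acap3 rose by 0.25 ± 0.10 units in 38 strains, Isg15, an interferon-induced gene, rose by 0.21 ± 0.30, and Tnfrsf4, a T cell receptor of the tumour necrosis factor family, fell by 0.30 ± 0.28. Ttll10, on the Mir429 side of the cluster, differed by 0.03 ± 0.12 units (adjusted p = 0.147).

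**Figure D5:**
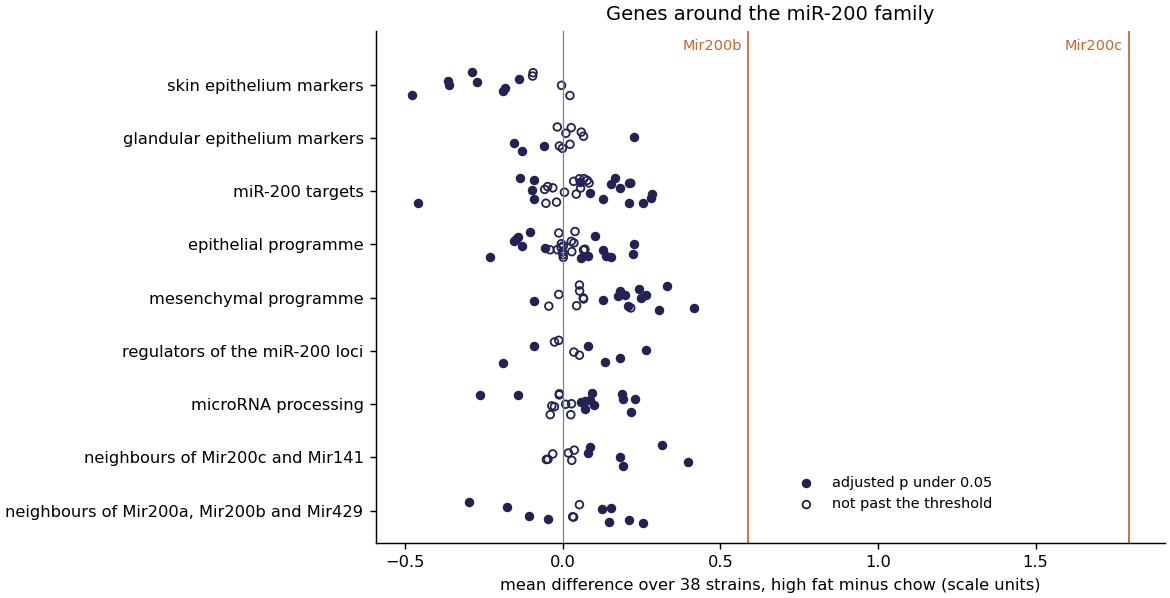
Mean difference between diets over 38 strains (high fat minus chow, scale units) of the genes of 9 lists (fat cell, muscle, B cell and macrophage markers are not drawn), filled where the adjusted p was under 0.05 (limma). The genes drawn lie between -0.48 and 0.42, below the differences of Mir200b (0.59) and Mir200c (1.80), drawn as lines. Genes of the lists not drawn reached -1.47 (Myh4) and 1.26 (Cd68).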

How the data were processed

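Subcutaneous fat of 42 mouse strains was measured on 80 Affymetrix arrays, 42 on chow and 38 on high fat. Per the submitters' processing notes, Affymetrix Expression Console and RMA were used; versions and the array's genome build are not given in the sources used here. The values the authors deposited are a score with mean 8 and SD 2 on each array over 65770 features, so 1 scale unit is 0.5 array SD and no folds are given. The design had assumed log2 values. Both deposited tables held the same values (0 differed).

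Diet was fitted in the 38 strains measured on both diets (76 arrays) with strain as a fixed block (limma 3.58.1, R 4.3.3), over the 39415 features with a gene symbol (adjusted by Benjamini-Hochberg, threshold 0.05). The strain label makes the pairs. Strain was tested with limma's F test, and the parents with a contrast in the same fit. The fit was tested on simulated data. Correlations used two-sided permutation tests (100000 resamples). In the lists, the feature with the highest mean stood for a symbol, and 175 of 177 list symbols were matched. Labels give no array batch or date, so no within-batch value could be given. Strains are the replicates, so a p-value reflects how pools of unlike strains vary.

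The loci were chosen for their diet difference, and the members, lists and tests were chosen with earlier results of these data known. Genes named are the members, a fixed set (Zeb1, Zeb2, Cdh1, Epcam, Grhl2, Ovol2, Esrp1, Ptpn6, Phb2, Ttll10 and Zfpm2), the 3 largest called changes of each list, the 5 largest rises and falls among microRNA loci, and the 5 symbols most correlated with each locus. Other genes named were chosen after their values were seen.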

Additional observations from a re-analysis of the deposited data

How the results depend on the processing

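The differences of the 5 loci between diets changed little with the processing. Mir200c ran from 1.74 to 1.90 units over all alternatives (no replicate block gave 1.80), Mir200b from 0.53 to 0.67, Mir141 from -0.13 to -0.07, Mir429 from -0.15 to -0.07 and Mir200a from -0.04 to 0.03. The alternative without the first 10 strains in sample order was chosen after seeing the data. No alternative made a strain or parental difference of a locus pass, and the parental differences near 0 turned sign for Mir141 (0.0141 with quantile normalization, 0.0462 with tissue covariates), Mir200b (-0.0117, quantile normalization) and Mir200a (-0.00171, covariates). Relations between members that passed went from 1 to 0 without the 15 unmatched strains (4 at an unadjusted p under 0.05). Relations with tissue markers went from 8 to 3 (quantile normalization), 2 (centred on other microRNA loci) and 0 (without the unmatched strains, with fewer arrays). Without the first 10 strains in sample order, 11 relations with tissue markers passed. Without the 40% lowest features, 127 microRNA loci were higher and 128 lower. With tissue covariates, 21 list genes were lower instead of 44. The covariates are means of 3 of the lists, and 23 of the 44 belong to those lists, so adjusting genes for their own list mean takes up most of the drop. Outside them 17 were lower instead of 21. The values turned for Zeb2 (-0.073), Ovol2 (0.0383), Ptpn6 (0.201) and, inside the skin list, Dsp (0.00814) and Krt5 (0.00672). With quantile normalization they turned for Zeb2 (-0.0016), Phb2 (-0.0455) and Fabp4 (0.0493). The cause of the other shifts was not tested, apart from the fewer features or strains of 2 alternatives. The 15 unmatched strain labels limit every count over strains, and 1 pool per strain and diet leaves the error of a single pool unknown.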
